A study of Homo sapiens with 8 samples.

Results

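Mitosis is carried out by a set of proteins that most cells make only from late S phase to the end of division, and 32 of their genes were followed here across the 4 groups of the study. The genes were taken by name from the deposited count table, with no threshold on their values, and are 32 of its 61209 gene names. They cover entry into mitosis, the centromere and kinetochore, the spindle checkpoint, spindle assembly and cytokinesis. Kinesins were not included, apart from CENPE, a kinetochore motor of the kinesin family. All 32 were among the 22554 genes tested.

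H1, an established line of human embryonic stem cells, was the source of every library. Its genotype, Msx1-P2A-tdTomato, makes a red fluorescent protein report MSX1. All groups share 1 differentiation protocol. Day 0 medium held Activin A (50 ng/mL), the GSK3 inhibitor CHIR99021 (6 µM), BMP4 (40 ng/mL) and FGF2 (10 ng/mL), and from day 1 the cells had BMP4 (60 ng/mL) and CHIR99021 (1 µM) for 3 days. On day 4 the cells were dissociated, pelleted at 25000 per well and kept in FGF8 plus FGF10 (FGF8+10, each 500 ng/mL), while controls had Mock treatment, of which no composition is given. Day 8 cells positive for Msx1 were collected as a Pdgfra-positive and a Pdgfra-low population, which gave 4 groups of 2 libraries: FGF8+10 Pdgfra-positive, FGF8+10 Pdgfra-low, Mock Pdgfra-positive and Mock Pdgfra-low. All libraries come from this 1 line. The labels call the 2 libraries of a group biological replicates but do not say whether they came from separate differentiations. The p-values therefore measure the spread between these libraries, which may be largely technical.

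Depth ran from 47698561 to 64390444 counts a library, in which each mate of a pair counts by itself. Levels are CPM, counts relative to the library's total after TMM scaling, which centres the ratios of most genes. Log2 fold changes are given ± SE from 1 edgeR quasi-likelihood model over all 8 libraries, and a gene was called at a Benjamini-Hochberg adjusted p under 0.05 over all tested genes. The sort genes followed the labels: PDGFRA stood at 712 and 716 CPM in treated Pdgfra-positive libraries against 279 and 292 CPM in treated Pdgfra-low ones, with 453 and 455 against 194 and 189 CPM for Mock. MSX1 was read in all libraries, with group means from 21.7 to 50.7 CPM. Among pluripotency markers, the defining factors POU5F1 and NANOG had group means of at most 0.061 and 0.041 CPM. Other markers of that list were expressed. Group means ran from 37.6 to 218 CPM for LIN28A, 23.5 to 51.9 for TDGF1, 36.4 to 44.4 for DPPA4 and 27.4 to 48.1 for DNMT3B. L1TD1 and ZFP42 had means of at most 1.50 and 0.545 CPM. The cells were gated after treatment on genes that themselves differ with it, so a change in the same cells and a change in which cells a gate holds cannot be told apart.

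Division starts when cyclin A and cyclin B activate the kinase CDK1, which CDC25 phosphatases free from inhibition. Kinetochores built on centromeres then bind spindle microtubules, the spindle checkpoint holds back the anaphase-promoting complex (APC/C) until all are bound, and the cell is divided at the midzone. Transcription of these genes peaks in G2 and M, and in resting cells the DREAM complex represses many of them through promoter elements known as CHR, while NF-Y binds their CCAAT boxes and MYBL2 and FOXM1 activate them. Their summed RNA is widely used as a measure of proliferation. Limb bud mesenchyme, in which MSX1 and PDGFRA are expressed, proliferates during outgrowth of the limb.

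Cells given FGF8+10 carried more mitosis RNA in both populations, and the Pdgfra-low cells carried the most. Summed over the 32 genes, the level with FGF8+10 was 2910.2 and 2919 CPM in Pdgfra-positive and 4501 and 4578 CPM in Pdgfra-low cells. Mock libraries held 1486 and 1483 CPM in Pdgfra-positive and 1612 and 1615 CPM in Pdgfra-low cells. The 4 groups did not overlap, and the population difference was wide under FGF8+10 and narrow under Mock. As a share of all counts without TMM scaling, the genes took 0.308 and 0.308% and 0.479 and 0.485% with FGF8+10 and 0.139 and 0.139% and 0.153 and 0.153% with Mock, the Pdgfra-positive libraries first each time. Exact binomial 95% intervals of the first FGF8+10 Pdgfra-positive and Mock Pdgfra-positive libraries, with 2 counts taken as 1 pair, were 0.306% to 0.309% and 0.138% to 0.141%, and cover counting error only. TOP2A, MKI67 and CENPF have the highest CPM, and without them the sum kept the same order of groups, at 1862 and 1871, 2909.9 and 2965, 987 and 986, and 1079 and 1077 CPM. In bulk RNA, fewer dividing cells and less RNA per dividing cell cannot be told apart.

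**Figure D1:**
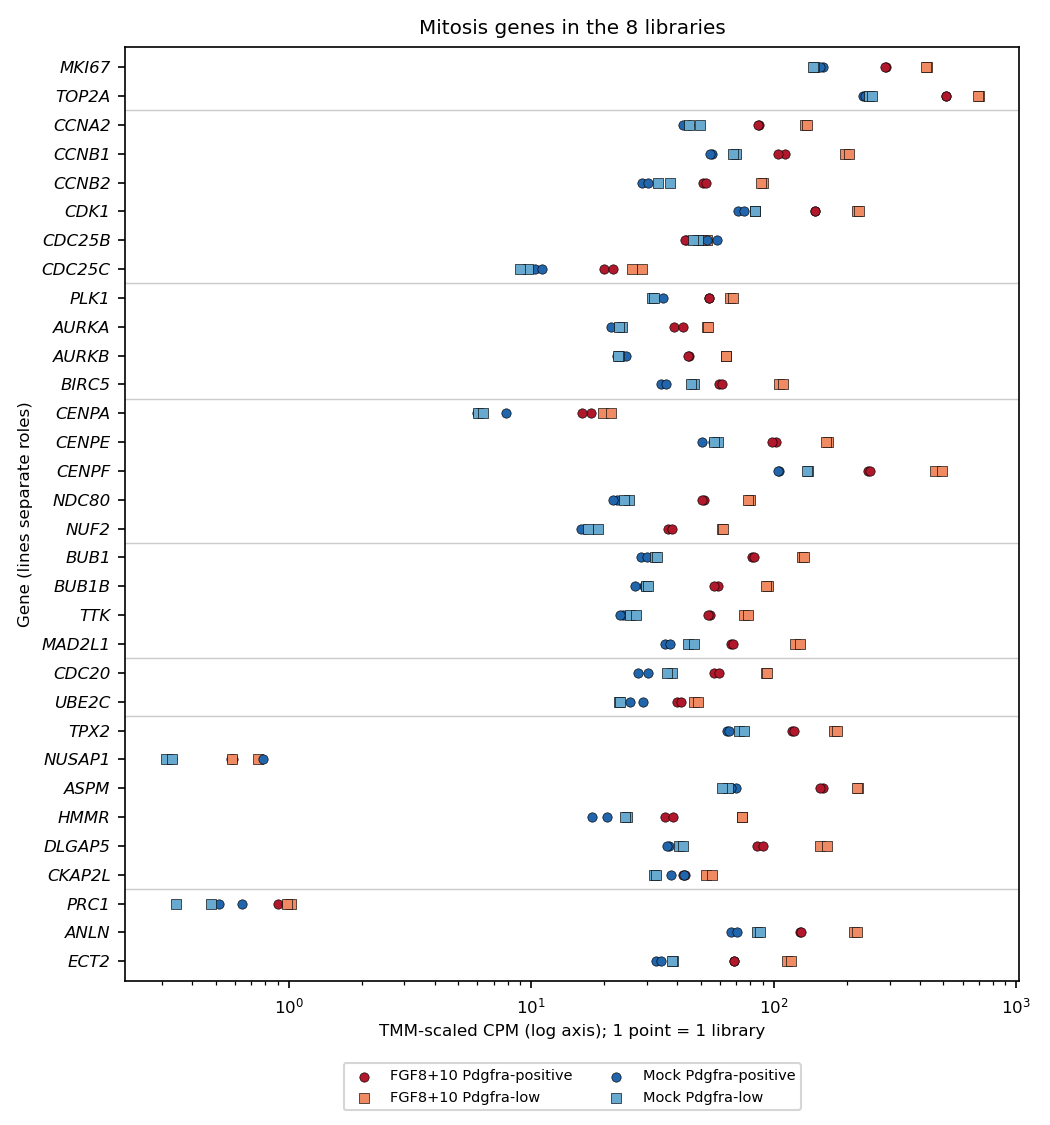
TMM-scaled CPM of each of the 32 mitosis genes (log axis) in the 8 libraries, with 1 point per library, colour and shape for the group, and lines between roles. For most genes the FGF8+10 Pdgfra-low squares lie farthest right and the Mock points farthest left, while CDC25B and CKAP2L show little separation and NUSAP1 and PRC1 lie near or under 1 CPM.

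The promoters of the members were searched for motifs known from cell cycle genes. RefSeq promoter windows (GRCh38.p14, 250 bases before to 50 after a start) were matched by symbol for 27 of the 32 genes, in 36 windows. AURKA, BIRC5, TTK, TPX2 and UBE2C had no entry. Searched on both strands were the CHR-type motif (TTTGAA or TTCGAA), the CCAAT box (CCAAT) and an E2F-type motif, none of which contains another. A CHR-type match lay in 26 of 36 member windows (72.2%) against 16.4% of all 35116 windows, and a CCAAT match in 26 of 36 against 34.6%. Both occurred together in 21 member windows (58.3%) against 6.38% of all, and at least 2 CCAAT matches in 16 (44.4%) against 10.8%. An E2F-type match lay in 5 windows (13.9%) against 3.35%. Windows of the same gene can overlap and share a match, as in CDK1 and AURKB. By gene, a CHR-type match lay in 23 of 27 members (85.2%) against 19.5% of 27305 genes, and a CCAAT match in 22 (81.5%) against 39.7%. Both lay in 19 (70.4%) against 7.85%, and an E2F-type match in 4 (14.8%) against 4.05%. These matches describe letters and are not measured sites.

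The 150 bases before the RefSeq start follow for 6 members, 5' to 3' on the gene's strand, with the matches in capitals. BUB1 and DLGAP5 had the 2 largest rises in Pdgfra-low cells. CCNB2 and PLK1 show the usual layout of CCAAT boxes upstream of a CHR-type match near the start. CKAP2L and CDC25B changed least of the well-counted members in each population. The stretches are chr2:110678064-110678213 on the minus strand (BUB1), chr14:55191586-55191735 on the minus strand (DLGAP5), chr15:59104996-59105145 on the plus strand (CCNB2), chr16:23678739-23678888 on the plus strand (PLK1), chr2:112764610-112764759 on the minus strand (CKAP2L) and chr20:3796160-3796309 on the plus strand (CDC25B).
BUB1: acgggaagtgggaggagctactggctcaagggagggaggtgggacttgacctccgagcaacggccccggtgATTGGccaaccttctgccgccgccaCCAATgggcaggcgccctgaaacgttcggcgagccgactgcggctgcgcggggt
DLGAP5: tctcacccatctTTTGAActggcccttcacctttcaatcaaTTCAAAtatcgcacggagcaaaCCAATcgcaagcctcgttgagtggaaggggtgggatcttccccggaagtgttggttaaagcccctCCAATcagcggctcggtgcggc
CCNB2: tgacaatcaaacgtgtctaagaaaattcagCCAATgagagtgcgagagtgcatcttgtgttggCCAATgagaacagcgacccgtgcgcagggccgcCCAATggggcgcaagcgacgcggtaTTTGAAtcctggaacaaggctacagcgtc
PLK1: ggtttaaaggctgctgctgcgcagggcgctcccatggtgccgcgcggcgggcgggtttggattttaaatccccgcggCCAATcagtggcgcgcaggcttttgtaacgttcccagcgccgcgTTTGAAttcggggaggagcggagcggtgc
CKAP2L: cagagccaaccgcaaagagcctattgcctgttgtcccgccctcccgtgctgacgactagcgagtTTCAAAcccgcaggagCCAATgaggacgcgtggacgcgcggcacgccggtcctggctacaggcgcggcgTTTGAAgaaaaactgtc
CDC25B: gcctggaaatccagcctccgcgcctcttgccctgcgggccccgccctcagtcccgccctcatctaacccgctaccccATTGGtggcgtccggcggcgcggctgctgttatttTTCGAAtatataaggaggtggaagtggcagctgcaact

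In the CCNB2 stretch, CCAAT boxes begin 120, 87 and 54 bases before the start and the CHR-type match 29 bases before it, and in PLK1 a CCAAT box begins 73 and a CHR-type match 29 bases before it. GENCODE 42 places the outer ends of DLGAP5, CCNB2, PLK1, CKAP2L and CDC25B upstream of these RefSeq starts. The CHR-type match of BUB1 begins 1 base after the first transcribed base and is outside the stretch shown. CKAP2L, which barely moved in Pdgfra-positive cells, carries both motifs, with CHR-type matches 86 and 17 bases and a CCAAT box 70 bases before the start. CDC25B has 4 RefSeq windows, of which the 1 shown holds both motifs, 1 other holds a CCAAT box and the remaining windows hold none. CCAAT boxes are in all 6 stretches, but the 6 genes were picked by hand, and the CDC25B window was shown because it holds both motifs. The stretches therefore cannot relate a motif to the size of a change. Windows of CENPE, NDC80, NUF2, BUB1B and ANLN hold no CCAAT match.

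**Figure D2:**
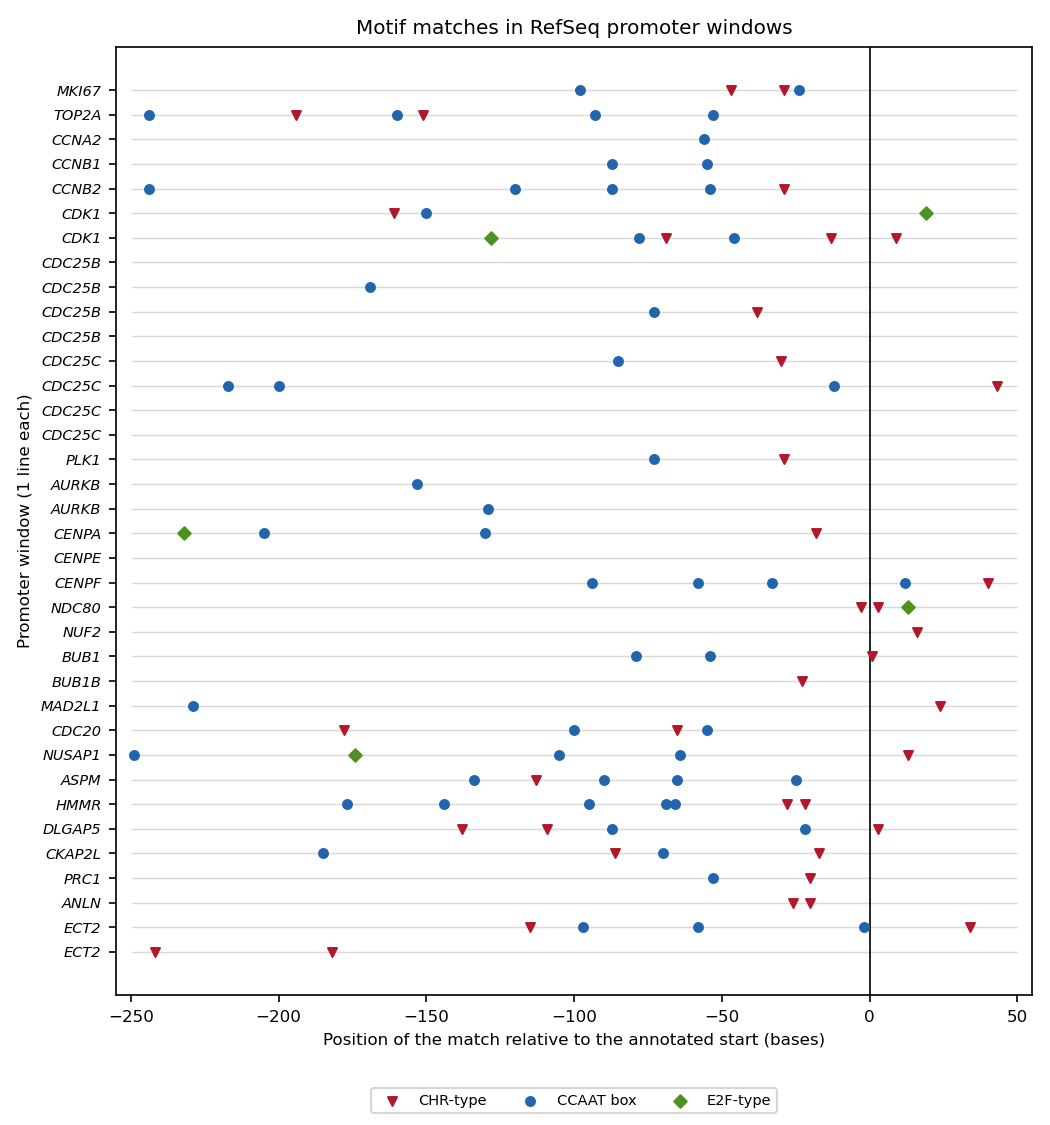
Position of CHR-type, CCAAT and E2F-type matches in the 36 promoter windows of 27 mitosis genes, in bases from the annotated start at 0, with 1 line per window. CHR-type matches lie in 26 windows, many of them within 50 bases of the start, with CCAAT boxes farther upstream.

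The first comparison asked what FGF8+10 changed in Pdgfra-positive cells. Of the 32 genes, 28 were higher, 1 was lower and 3 were not called, where 25.8% of all tested genes were called higher and 25.1% lower. The median log2 fold change was 0.95, against -0.01 over all tested genes, and 13 of the 32 rose by at least 2-fold, where 7.29% of tested genes did. In Pdgfra-low cells 31 were higher and 0 lower, where 27.9% of tested genes were called higher and 27.7% lower. NUSAP1 was the gene not called there (its unadjusted p was 0.0344). The median in Pdgfra-low cells was 1.499, against -0.02 over all tested genes, and 29 of the 32 rose by at least 2-fold (background 9.45%). By library, both treated values lay above both Mock values for 29 genes and below them for 1 in Pdgfra-positive cells (36.6% and 37.0% of tested genes), and above them for 32 in Pdgfra-low cells (37.4%). With DESeq2, 28 were higher and 1 lower in Pdgfra-positive cells and 30 higher in Pdgfra-low cells, where CDC25B lost its call.

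Scaled by library totals alone, the median tested gene moved from -0.01 to 0.16 in Pdgfra-positive and from -0.02 to 0.15 in Pdgfra-low cells. The calls over all genes then became 8164 higher and 3991 lower in place of 5811 and 5658, and 8113 and 4672 in place of 6300 and 6256. Of the 32 genes, 29 were then higher and 1 lower in Pdgfra-positive and 32 higher in Pdgfra-low cells.

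**Figure D3:**
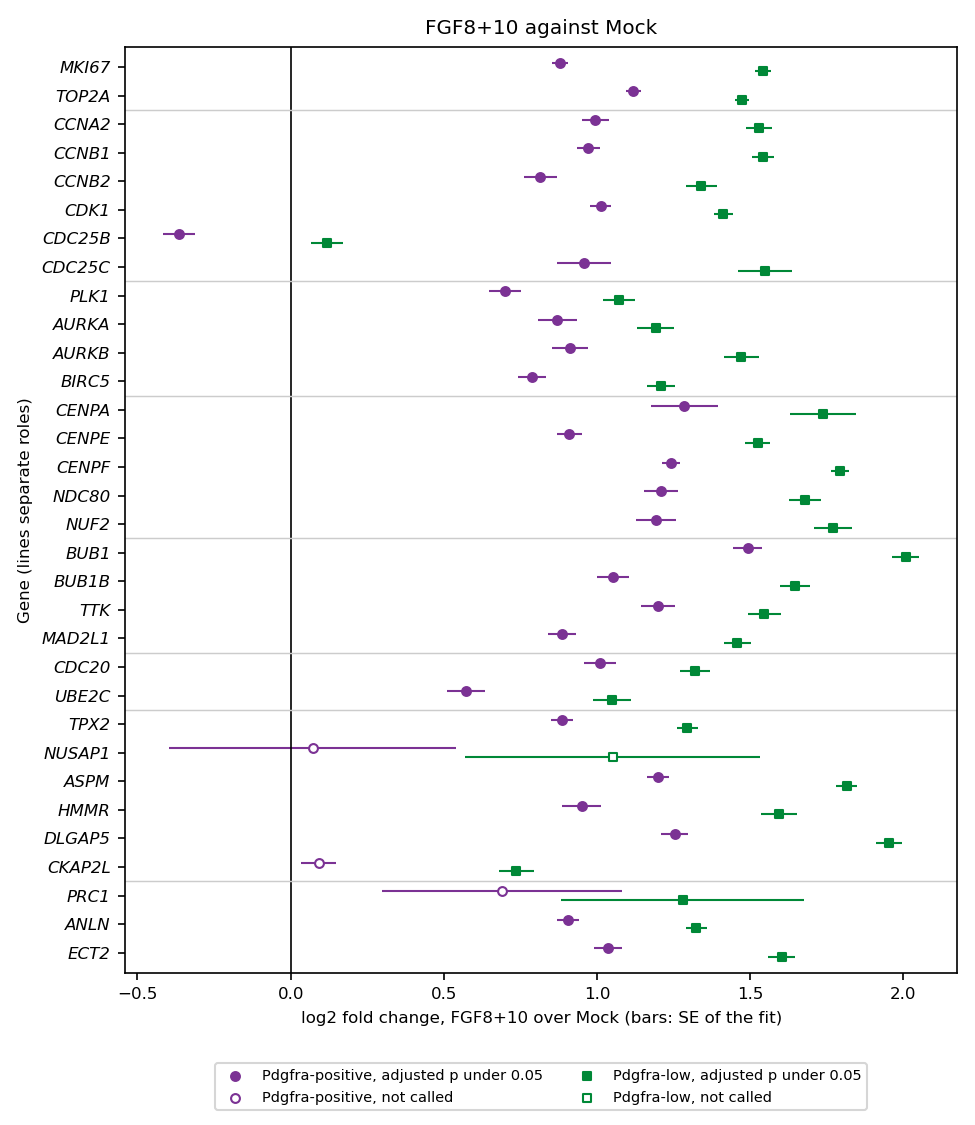
Log2 fold change of FGF8+10 over Mock for each mitosis gene, with the SE of the fit as bars, in Pdgfra-positive (circles) and Pdgfra-low cells (squares). Filled symbols passed the test and open symbols did not. CDC25B alone was called lower, in Pdgfra-positive cells.

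MKI67, the antigen of the Ki-67 proliferation stain that coats mitotic chromosomes (chromosome 10, 128096659 to 128126423 in GRCh38), stood at 159 and 155 CPM with Mock and 291 and 287 CPM with FGF8+10 in Pdgfra-positive cells, and 147 and 146 against 429 and 424 CPM in Pdgfra-low cells. The FGF8+10 libraries were all above the Mock libraries, and under Mock the Pdgfra-positive libraries lay slightly above the Pdgfra-low ones. Its log2 fold change was 0.88 ± 0.026 in Pdgfra-positive cells (adjusted p = 1.55e-30) and 1.54 ± 0.026 in Pdgfra-low cells (adjusted p = 1.91e-40). TOP2A, the topoisomerase that untangles sister chromatids, was the most abundant member, at 234 and 238 CPM with Mock and 512 and 512 CPM with FGF8+10 in Pdgfra-positive cells, and 248 and 255 against 700.5 and 696 CPM in Pdgfra-low cells. It rose by 1.12 ± 0.023 and 1.47 ± 0.023 in Pdgfra-positive and Pdgfra-low cells.

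Of the 6 genes of mitotic entry, 5 were higher and 1 lower in Pdgfra-positive cells, and 6 were higher in Pdgfra-low cells. CCNA2 encodes cyclin A2, which acts from S phase into early mitosis. It stood at 44.8 and 42.1 CPM with Mock and 86.6 and 86.5 CPM with FGF8+10 in Pdgfra-positive cells, and 44.6 and 49.6 against 134 and 137 CPM in Pdgfra-low cells. The treated libraries all lay above the Mock libraries, which overlapped between the populations. The log2 fold change of CCNA2 was 0.99 ± 0.045 and 1.53 ± 0.043 in Pdgfra-positive and Pdgfra-low cells. CCNB1 and CCNB2, the B-type cyclins, rose by 0.97 ± 0.038 and 0.81 ± 0.054 in Pdgfra-positive and by 1.54 ± 0.036 and 1.34 ± 0.051 in Pdgfra-low cells. CDK1, their kinase, reached 220.4 and 224 CPM in the FGF8+10 Pdgfra-low libraries from 83.3 and 83.5 CPM in the Mock ones.

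The CDC25 phosphatases, which activate CDK1, went apart. CDC25C rose by 0.96 ± 0.088 and 1.55 ± 0.087 in Pdgfra-positive and Pdgfra-low cells. CDC25B, which starts CDK1 activation at the centrosome (chromosome 20, 3786772 to 3806121), stood at 58.1 and 53.1 CPM with Mock and 43.3 and 43.1 CPM with FGF8+10 in Pdgfra-positive cells, and 48.5 and 46.6 against 53.0 and 50.3 CPM in Pdgfra-low cells. In Pdgfra-positive cells both FGF8+10 libraries lay below both Mock libraries, and in Pdgfra-low cells both lay above them by a few CPM. Its log2 fold change was -0.36 ± 0.052 (adjusted p = 5.35e-08) in Pdgfra-positive and 0.12 ± 0.051 (adjusted p = 0.0469) in Pdgfra-low cells. The rise in Pdgfra-low cells was not called without FGF8+10 Pdgfra-low replicate 1 (adjusted p = 0.31), without Mock Pdgfra-low replicate 1 or 2 (0.0504 and 0.258), with DESeq2 (0.0676) or with no filter (0.0634). The fall in Pdgfra-positive cells was called under every alternative run.

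Mitotic kinases and their partner in the chromosomal passenger complex rose in all cases, 4 of 4 in both populations. PLK1, the polo-like kinase of centrosomes and kinetochores, stood at 34.8 and 31.8 CPM with Mock and 54.2 and 53.9 CPM with FGF8+10 in Pdgfra-positive cells, and 31.4 and 32.1 against 65.7 and 67.7 CPM in Pdgfra-low cells. Both treated groups lay above both Mock groups. PLK1 rose by 0.70 ± 0.053 in Pdgfra-positive and 1.07 ± 0.052 in Pdgfra-low cells. AURKA, the spindle pole kinase, rose by 0.87 ± 0.063 and 1.19 ± 0.061, and AURKB, the kinase of the passenger complex, by 0.91 ± 0.059 and 1.47 ± 0.057 in the same order. BIRC5 (survivin), which places AURKB on the centromere, rose by 0.79 ± 0.047 and 1.21 ± 0.044. Among roles with at least 4 members, this one had the smallest median rise in Pdgfra-positive cells (0.83).

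Centromere and kinetochore genes rose in 5 of 5 cases in both populations, with medians of 1.21 and 1.74. CENPA, the histone H3 variant that marks the centromere, stood at 5.96 and 7.86 CPM with Mock and 17.6 and 16.2 CPM with FGF8+10 in Pdgfra-positive cells, and 6.03 and 6.34 against 19.8 and 21.4 CPM in Pdgfra-low cells. Treated and Mock libraries did not overlap, and the Mock Pdgfra-positive libraries differed from each other by more than the other pairs did. CENPA rose by 1.28 ± 0.11 and 1.74 ± 0.11 in Pdgfra-positive and Pdgfra-low cells. CENPF, a large kinetochore protein that builds up in G2 (chromosome 1, 214603195 to 214664571), had 105 and 104 CPM with Mock and 244 and 249.9 CPM with FGF8+10 in Pdgfra-positive cells, and 138 and 138 against 462 and 493 CPM in Pdgfra-low cells. Its 4 groups were separate, and it rose by 1.24 ± 0.030 (adjusted p = 2.21e-34) and 1.79 ± 0.029 (adjusted p = 1.59e-41). NDC80 and NUF2, partners in the complex that grips microtubules, rose by nearly the same amount, 1.21 ± 0.056 and 1.19 ± 0.065 in Pdgfra-positive and 1.68 ± 0.053 and 1.77 ± 0.062 in Pdgfra-low cells. CENPE, the motor that moves chromosomes to the metaphase plate, rose by 0.91 ± 0.042 and 1.52 ± 0.040.

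Spindle checkpoint genes also rose in 4 of 4 cases in both populations. BUB1, the checkpoint kinase that marks centromeric chromatin (chromosome 2, 110637528 to 110678063), had the largest change of all members in each population. It stood at 28.4 and 30.1 CPM with Mock and 81.4 and 83.2 CPM with FGF8+10 in Pdgfra-positive cells, and 32.4 and 33.0 against 130.2 and 133 CPM in Pdgfra-low cells. The treated libraries exceeded every Mock library by more than 2-fold. Its log2 fold change was 1.49 ± 0.046 (adjusted p = 4.03e-30) in Pdgfra-positive and 2.01 ± 0.044 (adjusted p = 3.65e-36) in Pdgfra-low cells. BUB1B (BubR1), TTK (the kinase MPS1) and MAD2L1, which together inhibit the APC/C, rose by 1.05 ± 0.052, 1.20 ± 0.055 and 0.89 ± 0.046 in Pdgfra-positive cells and by 1.65 ± 0.050, 1.55 ± 0.053 and 1.46 ± 0.044 in Pdgfra-low cells. Their target CDC20, the APC/C coactivator, stood at 30.3 and 27.5 CPM with Mock and 56.7 and 59.4 CPM with FGF8+10 in Pdgfra-positive cells, and 38.1 and 36.4 against 92.5 and 93.6 CPM in Pdgfra-low cells. It rose by 1.01 ± 0.052 and 1.32 ± 0.049. UBE2C, the ubiquitin-conjugating enzyme of the APC/C, was among the 4 smallest changes in both populations, at 28.9 and 25.7 CPM with Mock and 39.8 and 41.3 CPM with FGF8+10 in Pdgfra-positive cells, and 23.1 and 23.2 against 47.0 and 48.8 CPM in Pdgfra-low cells. Treated and Mock libraries were still separate, and UBE2C rose by 0.57 ± 0.062 and 1.05 ± 0.061.

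Of 6 genes of spindle assembly and microtubule binding, 4 were higher and 0 lower in Pdgfra-positive cells, and 5 were higher and 0 lower in Pdgfra-low cells. DLGAP5 (HURP), which stabilises kinetochore fibres (chromosome 14, 55148112 to 55191608), had 37.1 and 36.5 CPM with Mock and 85.4 and 89.9 CPM with FGF8+10 in Pdgfra-positive cells, and 40.8 and 42.4 against 156 and 166 CPM in Pdgfra-low cells. The FGF8+10 Pdgfra-low libraries were apart from all others. DLGAP5 rose by 1.25 ± 0.044 and 1.95 ± 0.042 in Pdgfra-positive and Pdgfra-low cells (adjusted p = 8.39e-28 and 2.26e-36). ASPM, a spindle pole protein whose loss causes microcephaly, stood at 70.2 and 66.9 CPM with Mock and 159 and 155 CPM with FGF8+10 in Pdgfra-positive cells, and 64.9 and 61.3 against 223 and 221 CPM in Pdgfra-low cells. It was higher in every treated library and rose by 1.20 ± 0.035 and 1.81 ± 0.034. TPX2, which activates AURKA on the spindle, had 64.5 and 65.3 CPM with Mock and 119 and 121 CPM with FGF8+10 in Pdgfra-positive cells, and 71.6 and 75.2 against 177 and 182 CPM in Pdgfra-low cells. It rose by 0.89 ± 0.036 and 1.29 ± 0.035, and HMMR, a spindle protein and hyaluronan receptor, by 0.95 ± 0.064 and 1.59 ± 0.059.

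CKAP2L, a spindle protein of dividing progenitors (chromosome 2, 112736349 to 112764664), behaved apart from most well-counted members, as CDC25B did. It stood at 37.5 and 42.7 CPM with Mock and 42.2 and 43.2 CPM with FGF8+10 in Pdgfra-positive cells, and 32 and 32.7 against 52.3 and 55.4 CPM in Pdgfra-low cells. In Pdgfra-positive cells 1 FGF8+10 library lay between the Mock libraries, whose 2 values were farther apart than the treated ones. Its log2 fold change there was 0.09 ± 0.057 (adjusted p = 0.191), and without Mock Pdgfra-positive replicate 2 it was 0.19 (adjusted p = 0.0158), and on library totals 0.26 (adjusted p = 9.94e-05). In Pdgfra-low cells it rose by 0.74 ± 0.057 (adjusted p = 1.78e-15).

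For NUSAP1 and PRC1 the counts were too few to measure the genes. NUSAP1, a microtubule bundling protein, had 0.784 and 0.332 CPM with Mock and 0.578 and 0.589 CPM with FGF8+10 in Pdgfra-positive cells, and 0.312 and 0.331 against 0.585 and 0.750 CPM in Pdgfra-low cells, from 16 to 44 counts per library. PRC1, the bundler of the anaphase midzone, had 0.515 and 0.643 CPM with Mock and 0.903 and 0.972 CPM with FGF8+10 in Pdgfra-positive cells, and 0.345 and 0.480 against 1.02 and 0.989 CPM in Pdgfra-low cells, from 21 to 66 counts. In the annotation used for counting, 81.4% of NUSAP1 exon bases and 61.9% of PRC1 exon bases are shared with other gene names, and reads over more than 1 name were not counted. For NUSAP1 the main partner is ENSG00000285920, on the same strand, with 0 counts in all libraries. For PRC1 it is ENSG00000284946, also on the same strand, which held 572 and 521 counts in FGF8+10 Pdgfra-positive, 547 and 518 in FGF8+10 Pdgfra-low, 186 and 189 in Mock Pdgfra-positive and 277 and 178 in Mock Pdgfra-low libraries. The other 30 members share at most 12.8% of their exon bases. NUSAP1 had log2 fold changes of 0.07 ± 0.47 and 1.05 ± 0.48, neither called. PRC1 had 0.69 ± 0.39 in Pdgfra-positive cells, not called, and rose by 1.28 ± 0.40 in Pdgfra-low cells (adjusted p = 0.00534), a call lost without Mock Pdgfra-low replicate 1 (adjusted p = 0.067).

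Cytokinesis was covered by the other two midzone members. ANLN (anillin), the scaffold of the contractile ring, rose by 0.90 ± 0.035 in Pdgfra-positive and 1.32 ± 0.033 in Pdgfra-low cells. ECT2, which activates RhoA at the cell equator, rose by 1.04 ± 0.046 and 1.60 ± 0.044.

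The effect of FGF8+10 was smaller in Pdgfra-positive than in Pdgfra-low cells for most members when the difference itself was tested. The contrast between the 2 effects was below 0 and called for 30 of the 32 genes and above 0 for none, where 14% of tested genes were called below 0 and 12% above. The median difference was -0.54, against -0.01 over all tested genes. Among called members it ranged from -0.70 for DLGAP5 to -0.31 for CDC20. The 4 largest differences by size were those of NUSAP1 (-0.98 ± 0.67, not called), DLGAP5 (-0.70 ± 0.061), MKI67 (-0.66 ± 0.037) and CKAP2L (-0.64 ± 0.081). The 4 smallest were those of CDC20 (-0.31 ± 0.072), AURKA (-0.32 ± 0.087), TTK (-0.35 ± 0.076) and TOP2A (-0.36 ± 0.033). The call of CENPA (adjusted p = 0.0234) was lost without any 1 of 4 libraries (FGF8+10 Pdgfra-positive replicate 2, FGF8+10 Pdgfra-low replicate 2, Mock Pdgfra-positive replicate 2 and Mock Pdgfra-low replicate 1, adjusted p of 0.0888 to 0.39). AURKA lost its call without FGF8+10 Pdgfra-positive replicate 1 (adjusted p = 0.0605).

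Members that rose more in one population rose more in the other. These comparisons share no library, and over the 30 well-counted members their log2 fold changes correlated at Pearson's r = 0.956 and Spearman's rho = 0.886, as a description across genes, which share libraries and depth and are not independent. BUB1 was first in both and CDC25B last in both. The gap between the populations had a median of 0.53 on the log2 scale over these 30.

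**Figure D4:**
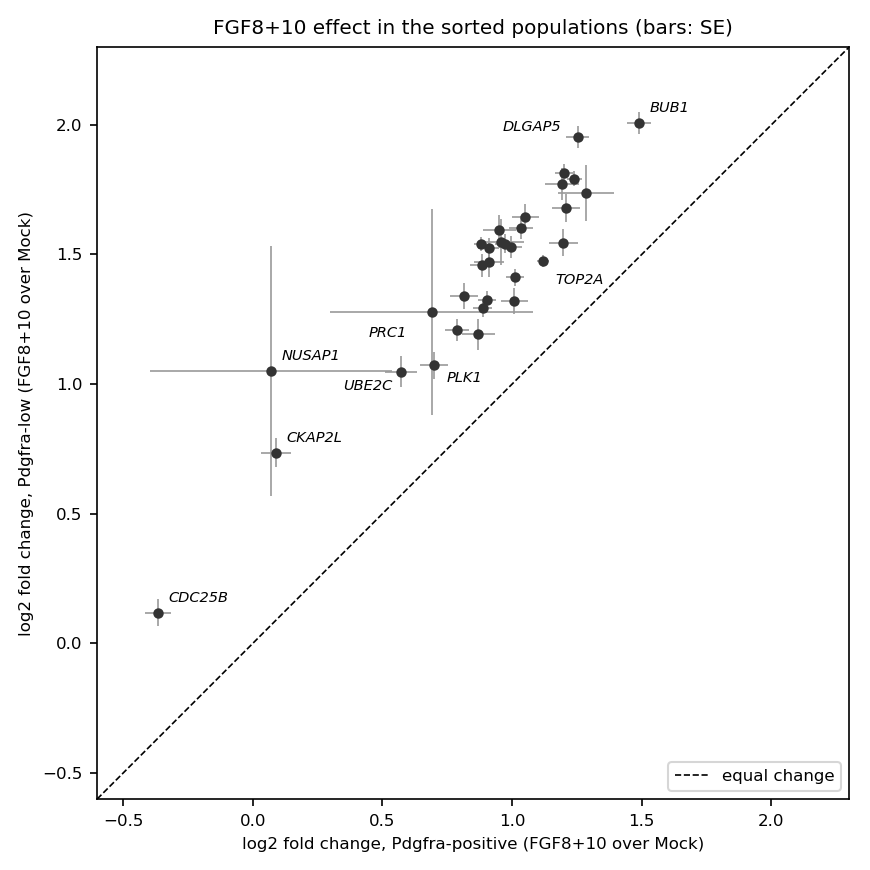
Log2 fold change of FGF8+10 over Mock in Pdgfra-positive cells (x axis) against Pdgfra-low cells (y axis) for the 32 mitosis genes, with SE bars and the line of equal change dashed. All points lie above the line, with CDC25B and CKAP2L far from the main group and NUSAP1 and PRC1 with wide bars.

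Under FGF8+10, the Pdgfra-positive cells carried less mitosis RNA than the Pdgfra-low cells. Of the 32 genes 30 were lower and 0 higher in Pdgfra-positive cells, where 21.7% of tested genes were called lower and 19.6% higher, and the median log2 fold change was -0.61 against 0.01 over all tested genes. Both Pdgfra-positive libraries lay below both Pdgfra-low ones for 31 genes (33.4% of tested genes). HMMR had the largest difference, with 35.8 and 38.4 CPM in Pdgfra-positive and 74.1 and 74.0 CPM in Pdgfra-low libraries (log2 fold change -0.998 ± 0.057, adjusted p = 1.38e-19). CENPF, MAD2L1 and CCNB1 followed with -0.95 ± 0.027, -0.90 ± 0.042 and -0.89 ± 0.035. The smallest differences were those of PRC1 (-0.10 ± 0.37) and NUSAP1 (-0.20 ± 0.45), not called, then UBE2C (-0.24 ± 0.058) and CDC25B (-0.26 ± 0.051). CENPA was called (adjusted p = 0.0144) but not without replicate 2 of FGF8+10 Pdgfra-positive (0.164) or of FGF8+10 Pdgfra-low (0.166).

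Under Mock more members were lower than higher in Pdgfra-positive cells. Of the 32, 17 were lower, where 13.4% of tested genes were called lower, and 5 were higher, near the background of 12.4%. The median was -0.13 against 0.02 over all tested genes. Both Pdgfra-positive libraries lay below both Pdgfra-low ones for 19 genes (28.1% of tested genes). They lay above them for 8, no larger a share than the 30.5% of tested genes. The lower genes included BIRC5 (34.3 and 35.8 CPM in Pdgfra-positive and 46.9 and 45.8 CPM in Pdgfra-low libraries, log2 fold change -0.40 ± 0.048) and CENPF (105 and 104 against 138 and 138 CPM, -0.40 ± 0.030). CDC20, HMMR, ANLN, MAD2L1 and CCNB1 lay between -0.37 and -0.32. Higher in Pdgfra-positive cells were CKAP2L (0.31 ± 0.059), UBE2C (0.24 ± 0.065), CDC25B (0.23 ± 0.052), ASPM (0.12 ± 0.037) and MKI67 (0.10 ± 0.027). Only CKAP2L of these 5 kept its call without Mock Pdgfra-positive replicate 1, and ASPM lost it also without Mock Pdgfra-low replicate 2 (adjusted p = 0.273), with no filter (0.06) and with only the Mock libraries fitted (0.0782). Without that library of the Mock Pdgfra-positive group, adjusted p was 0.194 for UBE2C, 0.0617 for CDC25B, 0.219 for ASPM and 0.0819 for MKI67. NUSAP1 (0.78 ± 0.50) and PRC1 (0.49 ± 0.42) had the largest values by size and were not called. The smallest were AURKB (0.05 ± 0.062), PLK1 (0.07 ± 0.056) and AURKA (-0.07 ± 0.065), not called, and TOP2A (-0.09 ± 0.024), which was lower. Of the 17 lower genes, 5 lost the call without 1 Mock library. TOP2A lost it without Pdgfra-low replicate 2 (adjusted p = 0.0605), and BUB1 without Pdgfra-low replicate 2 (0.0652) or Pdgfra-positive replicate 1 (0.16). NDC80 and CENPE lost it without Pdgfra-positive replicate 2 (adjusted p = 0.184 and 0.631) or Pdgfra-low replicate 1 (0.213 and 0.268). TTK lost it without Pdgfra-positive replicate 1 or 2 (adjusted p = 0.0581 and 0.16) or Pdgfra-low replicate 2 (0.229). CENPE, NDC80 and TTK were also not called with only the Mock libraries fitted (adjusted p = 0.0712, 0.0753 and 0.0701). CCNA2 (-0.12 ± 0.047, adjusted p = 0.0621), not called, was called lower without Mock Pdgfra-low replicate 1 (adjusted p = 0.00426) and under several other alternatives, library totals among them (0.0226).

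**Figure D5:**
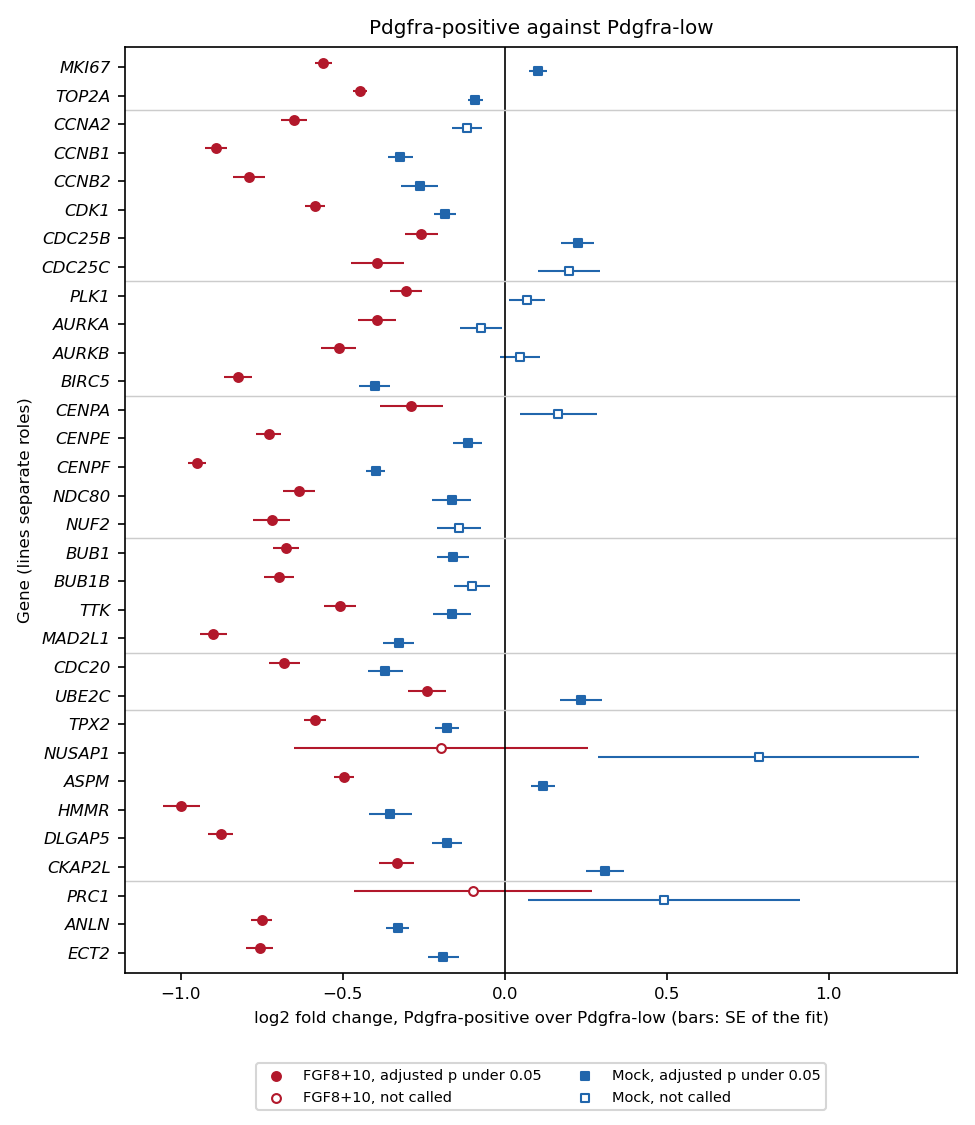
Log2 fold change of Pdgfra-positive over Pdgfra-low cells for each mitosis gene under FGF8+10 (circles) and Mock (squares), with SE bars, filled where the test was passed. Circles lie left of 0, at -0.10 to -0.998, while squares lie on both sides of 0.

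To compare levels between genes, CPM were divided by exon length in kb. This length covers all annotated exons of a gene name, not the transcripts made in these cells, so the order of genes is approximate. On this scale TOP2A was highest in FGF8+10 Pdgfra-positive cells at a mean of 80.4 CPM per kb, followed by CCNB1 at 44.3, CDK1 at 37.9 and TPX2 at 33.3. UBE2C and CCNA2, at 31.5 and 31.5, did not differ beyond their replicates. MKI67 and CENPF, which have long transcripts, stood at 22.5 and 21.2 CPM per kb. At the low end were CENPA (8.66), CKAP2L (7.82) and CDC25C (6.26), above NUSAP1 and PRC1. In Mock Pdgfra-positive cells TOP2A again led at 37.0 CPM per kb. The order of the 32 levels was alike across groups, with Spearman's rho from 0.823 to 0.966 over the pairs of groups.

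Genes of the same machinery outside the 32 mostly moved in the same direction, with smaller medians in both populations. Of 95 other mitosis genes in 4 lists, 80 were higher and 2 lower with FGF8+10 in Pdgfra-positive cells (median 0.65). In Pdgfra-low cells 88 were higher and 1 lower (median 0.98). Of all tested genes, 25.8% were higher and 25.1% lower in Pdgfra-positive and 27.9% and 27.7% in Pdgfra-low cells. These shares apply to each list that follows. The contrast between the 2 effects was below 0 and called for 61 of the 95 and above 0 for 2 (median -0.31). Of all tested genes, 14% were called below 0 and 12% above. Of 31 kinetochore and centromere genes 27 were higher and 1 lower in Pdgfra-positive and 29 were higher and 0 lower in Pdgfra-low cells. CENPH, of the inner kinetochore, rose by 1.22 ± 0.083 in Pdgfra-positive cells, and SPC25, a partner of NDC80, by 1.91 ± 0.089 in Pdgfra-low cells. ZW10, a checkpoint protein that also works in membrane traffic, fell in Pdgfra-positive cells (-0.23 ± 0.050), a call lost on library totals (adjusted p = 0.377).

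Of 18 condensin, cohesin and separation genes 16 were higher and 1 lower in Pdgfra-positive and 17 were higher and 0 lower in Pdgfra-low cells. SGO2, the centromeric guardian of cohesin, rose by 1.21 ± 0.063 and 1.54 ± 0.059, and the condensin subunit NCAPG by 1.02 ± 0.045 and 1.49 ± 0.043. STAG1, a cohesin subunit that acts through the whole cell cycle, fell in Pdgfra-positive cells (-0.18 ± 0.038), a call lost on library totals (adjusted p = 0.941). Of 27 checkpoint, APC/C and kinase regulators 18 were higher and 0 lower in Pdgfra-positive and 24 were higher and 0 lower in Pdgfra-low cells. The passenger subunit CDCA8 rose by 0.95 ± 0.068 and 1.41 ± 0.066, the centrosomal kinase NEK2 by 0.88 ± 0.085 in Pdgfra-positive cells, and TRIP13, which disassembles the checkpoint complex, by 1.41 ± 0.065 in Pdgfra-low cells. Of 19 spindle, centriole and cytokinesis genes 19 were higher and 0 lower in Pdgfra-positive and 18 were higher and 1 lower in Pdgfra-low cells. ARHGAP11A and PSRC1, a spindle protein, led in Pdgfra-positive cells with 1.32 ± 0.069 and 1.25 ± 0.079, and CEP55, an abscission protein, and PLK4, the kinase of centriole duplication, in Pdgfra-low cells with 1.91 ± 0.066 and 1.73 ± 0.062. ARHGAP11A shares 30.3% of its exon bases with the readthrough gene ARHGAP11A-SCG5. NUMA1, a spindle pole protein that is nuclear in interphase, fell slightly in Pdgfra-low cells (-0.07 ± 0.027), while on library totals it was higher there (log2 fold change 0.10, adjusted p = 0.00191), and the fall lost its call with DESeq2 (0.0998), with DESeq2 size factors (0.0644) and without any of 3 libraries (0.101 to 0.269).

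Of 17 transcriptional regulators of mitosis genes 14 were higher and 1 lower in Pdgfra-positive cells (median 0.37). In Pdgfra-low cells 14 were higher and 0 lower (median 0.34). Tested genes were higher in 25.8% and lower in 25.1% of cases in Pdgfra-positive cells, and in 27.9% and 27.7% in Pdgfra-low cells. FOXM1, the activator of G2 and M genes, had 37.4 and 34.2 CPM with Mock and 59.1 and 59.4 CPM with FGF8+10 in Pdgfra-positive cells, and 38.1 and 36.1 against 92.5 and 90.8 CPM in Pdgfra-low cells. Treated and Mock libraries were separate, and FOXM1 rose by 0.73 ± 0.050 and 1.30 ± 0.048. MYBL2, the other activator of these promoters, rose by 0.81 ± 0.047 in Pdgfra-positive cells, and its relative MYBL1 by 1.43 ± 0.15 and 1.74 ± 0.14 from levels of a few CPM. LIN37, a DREAM subunit, was lower in Pdgfra-positive cells (-0.52 ± 0.21, adjusted p = 0.0408), at 2.91 and 3.38 CPM with Mock and 2.07 and 2.33 CPM with FGF8+10. That call was lost with DESeq2 (0.0759), with no filter (0.0827), on library totals (0.181) and without any of 3 libraries (0.0775 to 0.243). LIN37 shares 54.0% of its exon bases with other gene names, 41.8% with 1 on the opposite strand and 26.7% with 1 on the same strand, and reads there were not counted.

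S phase genes mostly rose with FGF8+10 as well. Of 20, 18 were higher and 0 lower in Pdgfra-positive cells (median 0.83), where 25.8% of tested genes were called higher and 25.1% lower. In Pdgfra-low cells 19 were higher and 0 lower (median 0.94), where 27.9% of tested genes were called higher and 27.7% lower. PCNA, the sliding clamp of DNA polymerase, rose by 1.19 ± 0.039 and 1.37 ± 0.037, CDC45 of the replicative helicase by 1.15 ± 0.092 in Pdgfra-positive cells, and RRM2, a ribonucleotide reductase subunit, by 1.36 ± 0.037 in Pdgfra-low cells. Summed, the S phase genes stood at 1260.3 and 1262 CPM and 1798 and 1805 CPM with FGF8+10 while Mock gave 739 and 737 and 891 and 889 CPM, listed for Pdgfra-positive then Pdgfra-low cells. Between the Mock populations 16 of the 20 were lower in Pdgfra-positive cells and 0 higher, beside 17 lower and 5 higher of the 32 mitosis genes. Of all tested genes, 13.4% were called lower and 12.4% higher there. The contrast between the 2 FGF8+10 effects was below 0 and called for 10 of the 20 S phase genes and above 0 for 1. Its median was -0.19, beside 30 called below 0 and a median of -0.54 for the mitosis genes. Of all tested genes, 14% were called below 0 and 12% above. These differences between the lists were not tested.

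Some markers of the labelled cells and of other cell types also differed between the groups. For scale, 25.8% of tested genes were called higher and 25.1% lower with FGF8+10 in Pdgfra-positive cells. In Pdgfra-low cells these shares were 27.9% and 27.7%. Between the populations under FGF8+10, 19.6% were called higher and 21.7% lower in Pdgfra-positive cells. No marker list was tested as a set. Of 8 limb and lateral plate mesenchyme markers 5 were higher and 2 lower with FGF8+10 in Pdgfra-positive cells, and 2 were higher and 5 lower in Pdgfra-low cells. They summed to 4984 and 5010.0 CPM with FGF8+10 and 13569.6 and 13404 CPM with Mock in Pdgfra-positive cells, and to 2729 and 2714 against 11146 and 11191 CPM in Pdgfra-low cells. Most of each sum was COL1A2, a collagen gene, with a log2 fold change of -1.86 ± 0.015 and -2.48 ± 0.015. TBX4, a hindlimb factor, also fell in both populations (-1.41 ± 0.048 and -2.60 ± 0.053). Of 8 endothelial markers 6 were higher and 1 lower with FGF8+10 in Pdgfra-positive and 8 were higher and 0 lower in Pdgfra-low cells, and 0 were higher and 7 lower in Pdgfra-positive than in Pdgfra-low cells under FGF8+10. Their summed level was 2129 to 2566 CPM with FGF8+10 and 1328 to 1369 CPM with Mock, most of it from KDR and TEK, while the defining junction genes PECAM1 and CDH5 had means of 18.5 and 19.8 CPM in FGF8+10 Pdgfra-low cells and at most 2.60 and 1.40 CPM elsewhere. Of 8 pluripotency markers 6 were tested, 2 were higher and 2 lower in Pdgfra-positive and 3 higher and 2 lower in Pdgfra-low cells. They summed to 263 to 335 CPM with FGF8+10 and 133 to 176 CPM with Mock. LIN28A had means of 146 and 218 CPM with FGF8+10 and 37.6 and 41.8 CPM with Mock, Pdgfra-positive cells first, and POU5F1 and NANOG were near 0. Epithelial markers, 4 in number, were carried by KRT8 and KRT18 and summed to 246 to 247 CPM in FGF8+10 Pdgfra-positive, 959 to 977 in FGF8+10 Pdgfra-low, 262 to 263 in Mock Pdgfra-positive and 603 to 605 CPM in Mock Pdgfra-low cells, with CDH1 at or under 1.51 CPM in every library. Cardiac muscle markers (6) summed to 11.2 to 23.8 CPM with FGF8+10 and 136 to 152 CPM with Mock. Most of each sum was TNNT2 and TNNI1, which were lower with FGF8+10 in both populations. ACTN2 was lower only in Pdgfra-low cells. NKX2-5 was not called (log2 fold change 0.29 ± 0.24 and 0.27 ± 0.23). MYH6 and MYH7 had group means of at most 0.190 and 0.0659 CPM. Blood (5) and neural (4) markers summed to at most 2.51 and 2.12 CPM in any library, and HBE1 was at 0 in every library. The part of these cells in the levels of the mitosis genes was not tested.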

How the data were processed

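RNA of 8 libraries from sorted H1-derived cells was made into NEBNext Ultra libraries, per the labels' protocols. FastQC 0.11.8, HISAT2 2.1.0 and the build GRCh38 are named in the submitters' processing notes. The authors deposited raw counts per gene name, made with featureCounts 2.0.3 on GENCODE 42 exons, per the file headers. The recorded command counts both mates, sets no strand and by its defaults leaves out reads over more than 1 gene name or with several positions, which lowers genes with overlapping or near-identical copies. Read trimming was not given in the sources used here. Exon length is as deposited.

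The tests used edgeR 4.0.16 under R 4.3.3 (filterByExpr, TMM factors of 0.936 to 1.07, robust quasi-likelihood F tests, 4 residual degrees of freedom), with DESeq2 1.42.0 as an alternative. SE is the log2 fold change over the square root of F. Of 39416 genes with a count 22554 were tested. The fit was tested on counts simulated with more spread than the fitted biological coefficient of variation of 4.06%. Counting of both mates was not simulated. Of genes changed by 1 on the log2 scale it recovered 96 to 99% in comparisons of 2 groups. For the difference between the effects it recovered 88%. At a change of 0.5 these were 54 to 64% and 18%. Replicate libraries correlated at 0.986 to 0.990 (Pearson's r, log2 CPM) and differed by 3.41 to 3.72 chi-square units per gene. Each mate of a pair counts by itself, so this value overstates the excess over sampling noise. Members, lists and motifs were chosen with earlier results of these data known. Members with the 4 largest and 4 smallest changes in a comparison, and the first of each role, are given in full, and of other lists the 2 largest called changes and those against the majority, apart from 1 gene that is not reported here. Alternatives were other scalings, DESeq2, no filter, only the libraries compared, a replicate block and each library left out. Promoters came from RefSeq (GRCh38.p14).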

Additional observations from a re-analysis of the deposited data

Results flagged for a closer look

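The FGF8+10 effect differed between the sorted populations for 30 of the 32 mitosis genes, by the edgeR test of the difference itself. Of all tested genes, 14% were called below 0 and 12% above 0 in this test. Values are the log2 fold change of FGF8+10 over Mock in Pdgfra-positive cells minus that in Pdgfra-low cells, so a negative value is a smaller rise, or a fall, in Pdgfra-positive cells. Among chromosome structure genes the value was -0.66 for MKI67 and -0.36 for TOP2A. Mitotic entry genes gave -0.53 for CCNA2, -0.57 for CCNB1, -0.53 for CCNB2, -0.40 for CDK1, -0.48 for CDC25B and -0.59 for CDC25C. For mitotic kinases and the passenger complex it came to -0.37 for PLK1, -0.32 for AURKA, -0.56 for AURKB and -0.42 for BIRC5. Centromere and kinetochore genes had -0.45 for CENPA, -0.61 for CENPE, -0.55 for CENPF, -0.47 for NDC80 and -0.58 for NUF2. In the spindle checkpoint it amounted to -0.52 for BUB1, -0.60 for BUB1B, -0.35 for TTK and -0.57 for MAD2L1. The APC/C genes showed -0.31 for CDC20 and -0.48 for UBE2C. Spindle genes stood at -0.41 for TPX2, -0.62 for ASPM, -0.64 for HMMR, -0.70 for DLGAP5 and -0.64 for CKAP2L. Cytokinesis genes had -0.42 for ANLN and -0.57 for ECT2. NUSAP1 and PRC1, with few counts, did not pass this test. The calls of CENPA and AURKA depended on single libraries, as given above.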

How the results depend on the processing

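The 32 log2 fold changes of the 5 contrasts were recomputed with other scalings, DESeq2, no filter, fewer libraries, a replicate block and each library left out. Of these values 2158 kept direction and call, 33 lost the call, 12 gained it and 3 changed sign. The 3 were uncalled values without Mock Pdgfra-positive replicate 2, namely NUSAP1 for FGF8+10 over Mock in Pdgfra-positive cells (-0.421) and AURKB and CENPA between the Mock populations (-0.0242 and -0.0577). Over single libraries left out these values reached 0.811, 0.108 and 0.346, without Mock Pdgfra-positive replicate 1. NUMA1, outside the 32, turned to 0.0955 in Pdgfra-low cells on library totals. The cause was not tested. With 1 library left out, the lone library of its group is assumed to vary like the other groups. Members called higher and lower then numbered 28 to 29 and 1 with FGF8+10 in Pdgfra-positive cells, 29 to 31 and 0 in Pdgfra-low cells, 0 and 29 to 30 between the populations under FGF8+10, 1 to 5 and 14 to 18 between those under Mock, and 0 and 29 to 30 for the difference between the effects. The low of 1 came without Mock Pdgfra-positive replicate 1.

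Replicate numbers are shared by the groups, but same-numbered libraries did not deviate together (r of -0.0122 to 0.0188 between groups over 22554 genes), so the numbers are treated as names. With the number as a replicate block the members called were 28 higher and 1 lower in Pdgfra-positive and 31 higher in Pdgfra-low cells, and over all genes 5767 and 5599, and 6261 and 6190. Few counts, at most 66 in a library, limit NUSAP1 and PRC1, whose exons are largely shared with other gene names.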
